A study of Mus musculus with 8 samples.

Results

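The planar cell polarity core genes are described here as 9 of the 23478 gene symbols counted in RNA sequencing of mouse tracheal cells and tracheas at E13.5, a stage counted in days of embryonic development. The members were taken by name, whatever their level: Dchs1, Fat4, Celsr1, Celsr2, Celsr3, Vangl1, Vangl2, Prickle1 and Prickle2. The study deleted a signalling gene and compared mutant with control embryos in each of 2 settings. In the sorted setting, Bmp4 mutants were Bmp4flox/flox, γSMAeGFP with a Cre recombinase (2 libraries) and their controls were Bmp4flox/flox, γSMAeGFP without Cre (3 libraries). Bmp4 encodes a secreted bone morphogenetic protein. All 5 sorted libraries carry the γSMAeGFP reporter, which marks muscle. Cells that stained for EPCAM, an epithelial surface protein, or that carried GFP were removed, and the cells left were labelled chondroblasts, the precursors of cartilage cells. In the whole trachea setting, the Wls mutant was Wls flox/flox, ShhCre+ (1 library) and its controls were Wls flox/flox (2 libraries). Wls is the carrier that Wnt proteins need in order to be secreted, and ShhCre acts in the Shh-expressing cells, which in the airway are the epithelium. Nothing in the labels tells if replicate libraries are from different embryos, and p-values then reflect only how far these libraries spread, which can be technical.

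Planar cell polarity is the alignment of cells along the plane of a tissue, set by protein complexes that sit on opposite sides of neighbouring cells. In the core complex, the Celsr cadherins bridge 2 cells, Vangl proteins recruit the cytoplasmic Prickle proteins on one side, and Frizzled receptors recruit Dishevelled on the other. Dchs1 and Fat4 form a separate system, in which the protocadherin Dchs1 on one cell binds the protocadherin Fat4 on the next. Wnt5a, acting through the receptors Ror2 and Ryk, is a secreted cue for Vangl2. In mice, loss of Wnt5a or Ror2 shortens the trachea, Vangl and Celsr proteins orient the cilia of airway epithelium, and Fat4 with Dchs1 arranges mesenchymal cells in developing skeletal elements.

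The sorted libraries held 12964287 and 15462780 counts in Bmp4 mutants, against 48876948 to 55492747 in controls, and the tracheas held 24596836 in the Wls mutant, against 27237573 and 31399982 in controls. Both Bmp4 mutant libraries stood apart from all others. Genes with no count numbered 919 and 955 in Bmp4 mutants, against 5573 to 6080 in controls, and olfactory and vomeronasal receptor genes, which tracheal cells are not known to use, summed to 2460 and 2200 CPM (counts scaled to a common library total) in mutants, against 10.9 to 14.8 CPM in controls. Over the 4042 genes that had no count in any control, the mutants averaged 21.1 and 19.6 counts per kilobase of exon, here called the background rate. An even background at that rate would make up 10.6% and 8.3% of the exonic counts of the mutants. Erythroid markers summed to 126000 and 1280 CPM in the Bmp4 mutants, against 30.2, 9240 and 9680 CPM in controls, so the first mutant also stood apart from the second. The deleted gene was lower in its own mutants: Bmp4 had 24.1 and 32.2 CPM in Bmp4 mutants, against 124, 99.2 and 121 CPM in controls, and Wls had 65.8 CPM in the Wls mutant, against 153 and 146 CPM in controls. The label chondroblast was checked with 13 chondrocyte marker genes, whose summed level was 734 and 1850 CPM in Bmp4 mutants, against 5940, 3680 and 2860 CPM in controls. No chondrocyte marker was at 0 in the mutants, where the background also adds counts to genes without a count in controls. Matn1, a cartilage matrix protein, was at 0 in the first and second control. In bulk samples, fewer cells of a type and less RNA per cell cannot be told apart.

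Levels were compared between genes as CPM per kilobase of exon, which takes the length of the transcript into account. In sorted controls, Dchs1 was highest at 25.5 ± 6.17 CPM per kilobase (SD, n = 3), followed by Fat4 at 19.6 ± 3.58 and Prickle1 at 17.2 ± 0.577. The ranges of these neighbours overlapped, although Dchs1 exceeded Fat4 within every control. Vangl2 stood at 8.21 ± 0.312 CPM per kilobase, below every value of Prickle1 and above every value of Prickle2, which averaged 4.89 ± 0.22. Vangl1 averaged 4.02 ± 1.29 CPM per kilobase and overlapped Prickle2. The Celsr genes came last, at 0.802 ± 0.0631 for Celsr2, 0.548 ± 0.108 for Celsr3 and 0.386 ± 0.135 for Celsr1, and only the ranges of Celsr3 and Celsr1 overlapped. In trachea controls the order was Dchs1, Prickle1, Fat4, Celsr1, Prickle2, Vangl1, Vangl2, Celsr2 and Celsr3, with Dchs1 at 21.1 and 25 CPM per kilobase and Celsr3 at 0.459 and 0.67. There Celsr1, at 6.59 and 6.1 CPM per kilobase, stood above Prickle2 at 4.64 and 5.95, which in turn stood above Vangl1 and Vangl2. The ranges of Vangl1 and Vangl2 overlapped, as did those of Dchs1 and Prickle1. The tables were made with different kits and scaled separately, so no level was tested between them.

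**Figure D1:**
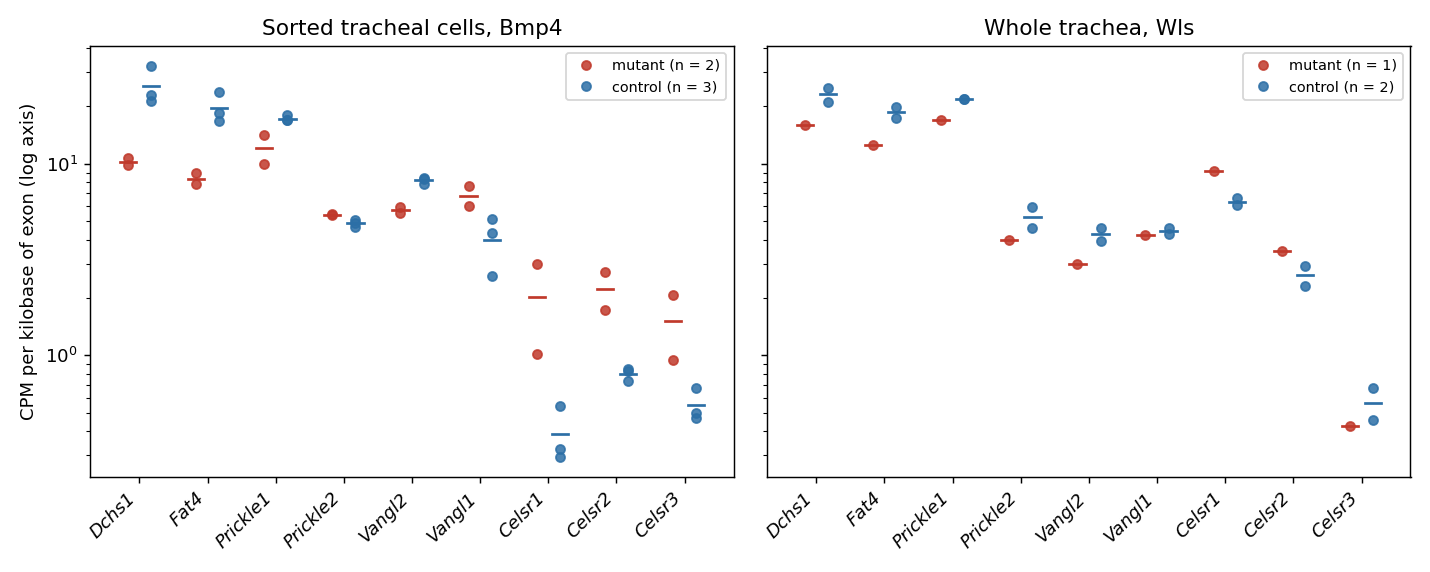
Level of each member in CPM per kilobase of exon (vertical log axis) in sorted cells and in whole trachea, with 1 point per library, mutants left of controls, and a bar at the mean. Both Bmp4 mutants lie below all 3 controls for Dchs1, Fat4, Prickle1 and Vangl2 and above them for the Celsr genes, Vangl1 and Prickle2.

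Promoters are shown for Fat4, which fell in the sorted mutants, and for Prickle1 and Vangl2, whose smaller differences depended on scaling, so that the sequences around their start sites can be read beside the values. The sequences are those of RefSeq on GRCm38.p6, from 250 bases before to 50 bases after the annotated start, 5′ to 3′ on the gene's strand. Capitals mark GGCGCC, the GC-rich motif bound by the SMAD proteins that transmit bone morphogenetic protein signals. Fat4 lies on chromosome 3 (chr3:38886690-38886989, plus strand), Prickle1 on chromosome 15 (chr15:93595853-93596152, minus strand) and Vangl2 on chromosome 1 (chr1:172027246-172027545, minus strand). The Vangl2 window lies wholly inside the gene span given below for Vangl2 (chr1:172000960-172028444). It therefore surrounds an annotated start within that span and not the 5′ end of the span.
Fat4: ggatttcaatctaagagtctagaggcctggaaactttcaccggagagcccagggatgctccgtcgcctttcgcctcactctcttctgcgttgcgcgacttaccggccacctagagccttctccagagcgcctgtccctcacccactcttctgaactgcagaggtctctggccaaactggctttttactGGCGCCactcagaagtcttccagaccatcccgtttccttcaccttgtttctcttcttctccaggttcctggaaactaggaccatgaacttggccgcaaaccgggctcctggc
Prickle1: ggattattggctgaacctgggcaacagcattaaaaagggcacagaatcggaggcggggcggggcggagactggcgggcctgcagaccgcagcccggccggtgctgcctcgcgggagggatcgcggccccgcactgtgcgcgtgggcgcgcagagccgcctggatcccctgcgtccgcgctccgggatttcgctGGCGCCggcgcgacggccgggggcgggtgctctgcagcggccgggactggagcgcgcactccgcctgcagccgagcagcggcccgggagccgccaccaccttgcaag
Vangl2: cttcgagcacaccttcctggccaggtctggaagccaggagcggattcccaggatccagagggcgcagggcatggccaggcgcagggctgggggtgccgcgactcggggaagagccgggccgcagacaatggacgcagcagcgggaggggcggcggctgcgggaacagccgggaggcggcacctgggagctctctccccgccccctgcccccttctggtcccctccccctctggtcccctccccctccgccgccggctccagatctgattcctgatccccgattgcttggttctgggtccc
The Fat4 window has 55.7% G and C with 13 CpG pairs, the Prickle1 window 74.0% with 39, and the Vangl2 window 71.3% with 21, beside medians of 53.0% and 7 over 32544 promoters of the same length. GGCGCC, which reads the same on both strands, occurs 1 time in the Fat4 and 1 time in the Prickle1 window shown and is present in 11.9% of all promoters. The TCF/LEF motif of Wnt target genes, searched on both strands as CTTTG followed by a pair of letters that are each A or T, occurs in none of the 3 windows shown and in 16.9% of all promoters. These matches describe letters and not binding sites. Promoter entries were found for 6 of the 9 members, also Celsr2, Celsr3 and Prickle2. RefSeq lists another Prickle1 start (chr15:93519471-93519770), whose window has 61.0% G and C, 20 CpG pairs and neither motif. Of 4 Prickle2 windows 1 holds 2 TCF/LEF matches.

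In sorted cells, the members differed in both directions between Bmp4 mutants and controls. The protocadherins Dchs1 and Fat4 fell to less than 0.43 of their control level, Vangl2 and Prickle1 fell by a smaller amount, the 3 Celsr genes were higher, and Vangl1 and Prickle2 did not pass the test. Each gene was tested with edgeR's quasi-likelihood test, with p adjusted by the Benjamini-Hochberg method over all 21665 genes tested and called under 0.05. By this test 7 of the 9 members were called, 3 higher and 4 lower, and all 9 passed the filter on low counts. Calls made up 54.9% of all genes tested (39.3% higher and 15.6% lower), so a member's call by itself does not set it apart. Without the first mutant library, which leaves a single mutant, the log2 fold change was -1.39 for Dchs1 and -1.15 for Fat4. It was -0.48 for Vangl2 and -0.30 for Prickle1. For Celsr1, Celsr2 and Celsr3 it was then 1.38, 1.09 and 0.77, smaller than with both mutants. The median log2 fold change was 0.15 over the members and 0.53 over all genes tested. It was -0.33 over the 10689 genes whose mean level over the 5 libraries was at least 2 times the mutant background. That mean includes the 3 controls, so a gene can pass this limit by its control level alone. The median of -0.33 is thus over a set chosen partly by control levels. Subtracting the background from every gene, keeping only the genes above that limit and scaling again left calls in 3.83% of 10676 genes (2.71% higher and 1.12% lower), and 1 member among them, lower. The 3 Celsr genes fell under that limit and 6 members were tested, with a median of -0.28 beside -0.01 over all genes in that fit. All 9 members had mutant libraries entirely above or entirely below the controls, 5 above and 4 below, beside 48.2% of all genes above and 25.6% below.

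**Figure D2:**
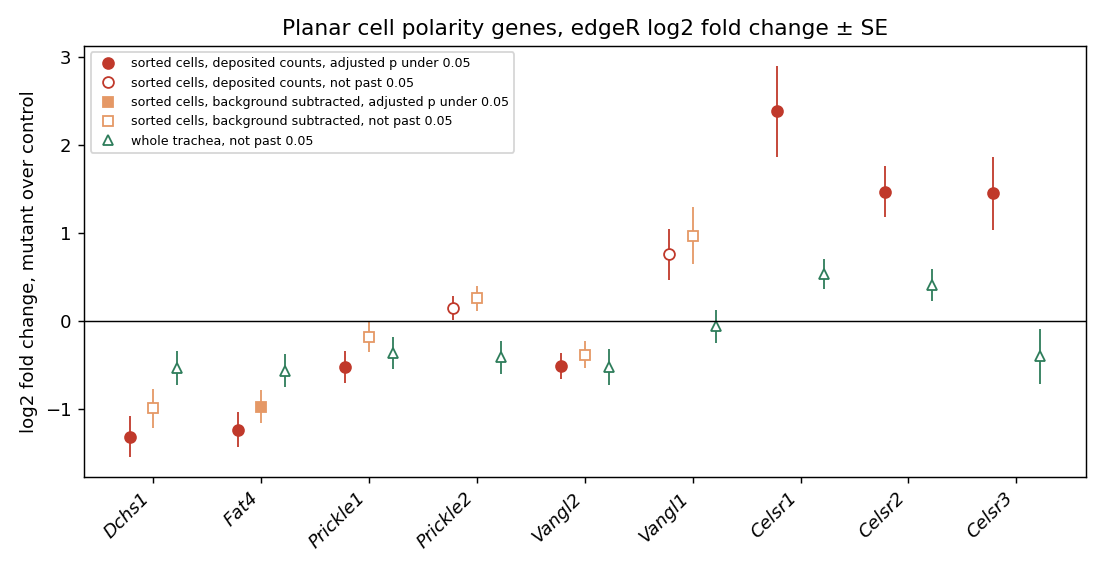
Log2 fold change of each member, mutant over control (vertical axis), with its standard error, from edgeR on deposited counts of sorted cells (circles), on counts after background subtraction (squares) and on whole trachea (triangles). Filled symbols have an adjusted p under 0.05; Dchs1 and Fat4 are below 0 in all 3 fits, and the Celsr genes have no square because they were not tested after subtraction.

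Dchs1, on chromosome 7 (chr7:105752990-105787654, mm10), encodes the protocadherin ligand of Fat4. Dchs1 had 115 and 105 CPM in Bmp4 mutants, against 350, 245 and 228 CPM in controls. Both mutants were below all 3 controls, and the first control was well above the other two. Dchs1 fell by 1.31 ± 0.23 (SE) on the log2 scale, 2.48-fold lower in mutants, with an edgeR adjusted p of 0.00343. The background would account for 14.3% and 11.3% of its counts in the mutants, leaving 98.9 and 93.5 CPM. After subtraction and scaling again its log2 fold change was -0.99 ± 0.22, and it no longer passed the test (edgeR adjusted p = 0.0679).

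Fat4, the receptor that binds Dchs1 and the largest protein of the group, spans chr3:38886940-39011985. Fat4 had 126 and 144 CPM in Bmp4 mutants, against 380, 297 and 270 CPM in controls. Again both mutants lay below every control and the first control was the highest. Fat4 fell by 1.23 ± 0.20 on the log2 scale, 2.34-fold lower in mutants (edgeR adjusted p = 0.0033). It was the member called after background subtraction, at -0.97 ± 0.19, with an adjusted p of 0.04998 that lies at the threshold. That call was lost when any 1 of the 5 libraries was left out. Without control 1, 2 or 3 its edgeR adjusted p was 0.13, 0.135 and 0.119. In these fits 0, 1 and 0 genes of the whole table were called, so the loss does not set Fat4 apart. The call was also lost with the rate of silent genes other than receptors (edgeR adjusted p = 0.0622), where 179 of 10131 genes were called. The log2 fold change of Fat4 stayed between -1.06 and -0.83 in all of these fits.

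The ratio of Dchs1 to Fat4 per kilobase was 1.38 and 1.1 in Bmp4 mutants, against 1.38, 1.23 and 1.26 in controls, and the second mutant lay below every control. Together they made up 33.8% and 34.7% of the summed level per kilobase of the 9 members in mutants, against 59.7%, 53% and 52.8% in controls. With the background subtracted the mutant shares were 37.7% and 37.4%, below every control. Chondrocyte markers were also lower in the same mutants, with 7 of 13 called lower and 1 higher, beside 15.6% and 39.3% of all genes. Their part in the values of Dchs1 and Fat4 was not tested. Across controls the markers and both genes had the same order, highest in control 1 and lowest in control 3. In mutants the order differed: the second mutant had the higher marker sum and more Fat4 but less Dchs1.

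Celsr1, Celsr2 and Celsr3 encode the cadherins that link neighbouring cells in the core complex. Celsr1 is the form best known from epithelia, and Celsr2 and Celsr3 are best known from neurons. Celsr1 had 32.7 and 11.1 CPM in Bmp4 mutants, against 3.52, 3.2 and 5.88 CPM in controls. Celsr2 had 28.8 and 18.3 CPM in mutants, against 7.73, 8.76 and 9 CPM in controls. Celsr3 had 23.7 and 10.9 CPM in mutants, against 5.78, 7.74 and 5.44 CPM in controls. Every mutant value was above every control value, and the first mutant exceeded the second for each gene, by the widest margin for Celsr1.

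On the deposited counts the Celsr genes passed the test as higher in mutants. The log2 fold change was 2.38 ± 0.52 for Celsr1 (edgeR adjusted p = 0.00731). It was 1.47 ± 0.29 for Celsr2 (edgeR adjusted p = 0.00512). It was 1.45 ± 0.41 for Celsr3 (edgeR adjusted p = 0.0206). Without the first mutant none of them passed, with adjusted p-values of 0.0981 for Celsr1, 0.0605 for Celsr2 and 0.191 for Celsr3, and Celsr3 also lost its call without control 3 (0.055).

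The Celsr counts in mutants lie within the range of genes that are silent in controls. The median of 758 silent genes with at least 2 kilobases of exon was 15.3 and 14.3 counts per kilobase in the mutants, and their 90th percentile was 45.8 and 42.1. Celsr1 had 41.2 and 18 counts per kilobase in the mutants, above 86.4% and 59% of those genes. Celsr2 had 37.2 and 30.5, above 82.8% and 80.9%. Celsr3 had 28.1 and 16.6, above 71.6% and 56.2%. At the average rate the background equals 51.2% and 108.8% of the Celsr1 counts, 56.7% and 64.3% of the Celsr2 counts and 74.9% and 117.9% of the Celsr3 counts. What remains is 16 and 0 CPM for Celsr1, 12.4 and 6.51 CPM for Celsr2 and 5.92 and 0 CPM for Celsr3, on the scale of the deposited counts. On the scale of the fit after subtraction, Celsr1 had 23.1 and 0 CPM in mutants, against 3.33, 3.09 and 5.7 CPM in controls. Celsr2 had 18 and 8.46 CPM in mutants, against 7.32, 8.45 and 8.72 CPM in controls. Celsr3 had 8.56 and 0 CPM in mutants, against 5.47, 7.48 and 5.28 CPM in controls. On that scale the groups overlapped for each of the 3 genes, with the first mutant above every control. With the background at the 90th percentile of the silent genes, 0 CPM of each Celsr gene would remain in both mutants, so a higher level was not detectable above that range. Each of the other 6 members exceeded at least 98.3% of the silent genes in both mutants.

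**Figure D3:**
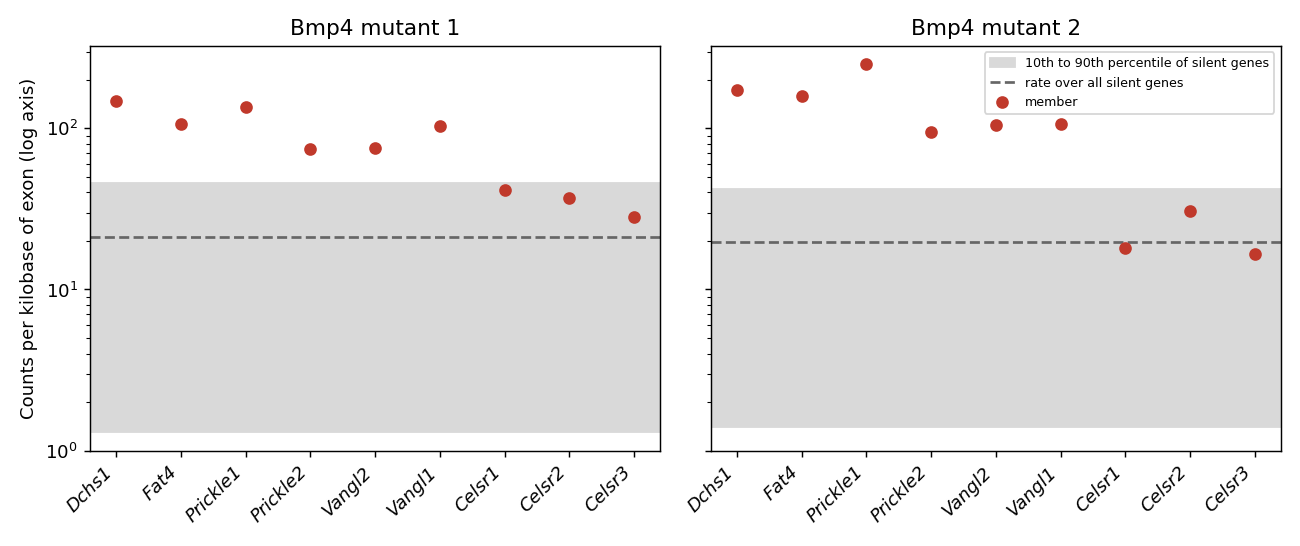
Counts per kilobase of exon (vertical log axis) of each member in the 2 Bmp4 mutant libraries, over a grey band from the 10th to the 90th percentile of 758 genes silent in all controls and a dashed line at the background rate of 21.1 and 19.6. The 3 Celsr genes lie inside the band in both libraries, and the other 6 members lie above it.

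Markers of other cells that could carry Celsr transcripts were also higher in the mutants as a sum. The 15 airway epithelium markers summed to 178 and 104 CPM in Bmp4 mutants, against 38.7, 50.5 and 34.1 CPM in controls, with 7 called higher and none lower. With the background subtracted they summed to 129 and 64 CPM in mutants, still above every control. Epcam itself had 5.41 and 6.8 CPM in mutants, against 2.19, 0.331 and 1.39 CPM in controls. Shh and Krt5 had no count in any control, and no epithelial marker was at 0 in the mutants. The background gives counts in the mutants to genes with no count in any control, so this does not set the epithelial markers apart. The 12 neuron markers summed to 916 and 1180 CPM in mutants, against 462, 752 and 404 CPM in controls, with 4 called higher and none lower and no marker at 0. Markers of some cells outside these lists also stood higher. Smooth muscle cells are those that the GFP sort removes. Their 10 markers summed to 1760 and 400 CPM in mutants, against 220, 223 and 260 CPM in controls, with 7 called higher. The 8 endothelium markers summed to 319 and 241 CPM in mutants, against 42.6, 169 and 127 CPM in controls, with 2 called higher. The 11 fibroblast and perichondrium markers summed to 13700 and 16700 CPM in mutants, against 8090, 10700 and 7370 CPM in controls, with 4 called higher and 1 lower. Other sums overlapped between the groups, as did the erythroid sum given above. Mesothelium markers had 274 and 77.9 CPM in mutants, against 18.5, 103 and 56.4 CPM in controls. Skeletal muscle markers had 422 and 215 CPM, against 84, 107 and 295 CPM. Neural crest markers had 125 and 148 CPM, against 115, 134 and 137 CPM. Leukocyte markers had 300 and 345 CPM, against 408, 214 and 457 CPM. These marker calls lie beside 39.3% of all genes called higher and 15.6% called lower, so the counts alone do not set the markers apart. With the background subtracted, neuron markers summed to 846 and 1120 CPM in mutants and smooth muscle markers to 1700 and 353 CPM. Endothelium markers then summed to 257 and 193 CPM, and fibroblast and perichondrium markers to 13600 and 16600 CPM. Each of these sums was still above every control. The part of any of these cell types in the Celsr values was not tested.

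Vangl1 and Vangl2 are related membrane proteins that hold Prickle at the cell edge. Vangl2, at chr1:172000960-172028444, had 31.6 and 34 CPM in Bmp4 mutants, against 47.7, 47.9 and 44.7 CPM in controls. The libraries of each group were close together and the groups did not overlap. Vangl2 fell by 0.51 ± 0.15 on the log2 scale, 1.43-fold lower in mutants (edgeR adjusted p = 0.0234). With scaling factors computed only from genes above the background, a shift that moved the median of all genes tested to 0.85, Vangl2 was at -0.19 (edgeR adjusted p = 0.326). After background subtraction it was at -0.38 ± 0.15 (edgeR adjusted p = 0.19), and on the deposited counts its call was also lost without the first mutant (-0.48, edgeR adjusted p = 0.0845), the first control (-0.50, 0.0699) or the second control (-0.57, 0.0721), with a log2 fold change of about the same size and 1 library fewer.

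Vangl1, at chr3:102153583-102204693, went the other way from its paralogue in value. Vangl1 had 49.7 and 39.1 CPM in mutants, against 33.5, 28.3 and 17 CPM in controls. Relative to their mean its controls were more spread than those of the other members above the background, and the lower mutant was not far above the highest control. The log2 fold change was 0.76 ± 0.29 and did not pass the test (edgeR adjusted p = 0.0617). It passed with RLE scaling (edgeR adjusted p = 0.0494), with DESeq2 (0.0432), with scaling from genes above the background (1.09, edgeR adjusted p = 0.0153) and without the first control (0.98, edgeR adjusted p = 0.027). After background subtraction it was at 0.97 ± 0.32 and did not pass (edgeR adjusted p = 0.134). Vangl2 per kilobase stood at 0.73 and 1 times Vangl1 in mutants, against 1.63, 1.94 and 3.02 times in controls, so the groups did not overlap. With the background subtracted these ratios were 0.66 and 0.99 in mutants.

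Prickle1 and Prickle2 are the cytoplasmic partners of Vangl. Prickle1, at chr15:93499114-93595891, had 43.2 and 61.4 CPM in Bmp4 mutants, against 77.7, 73.6 and 73.4 CPM in controls. The controls lay within a narrow range, and the mutants differed more from each other than the controls did. Prickle1 fell by 0.52 ± 0.18 on the log2 scale, 1.43-fold lower in mutants (edgeR adjusted p = 0.0434). This call was not kept with limma-voom (adjusted p = 0.0644), with scaling from genes above the background (-0.20, edgeR adjusted p = 0.342), after background subtraction (-0.18 ± 0.17, edgeR adjusted p = 0.543), or without the first mutant (-0.30, edgeR adjusted p = 0.16). It was also lost without control 1, 2 or 3 (edgeR adjusted p = 0.1, 0.0951 and 0.0784), at log2 fold changes of -0.49, -0.60 and -0.53.

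Prickle2, at chr6:92370908-92706155, had 47 and 46.6 CPM in mutants, against 42.2, 44.1 and 40.3 CPM in controls. Both mutants were above the controls by a small margin. The log2 fold change was 0.15 ± 0.14 (edgeR adjusted p = 0.396), 0.26 ± 0.14 after background subtraction (edgeR adjusted p = 0.32), and 0.47 with scaling from genes above the background, where it passed (edgeR adjusted p = 0.0305). Prickle1 per kilobase was 1.83 and 2.62 times Prickle2 in mutants, against 3.66, 3.32 and 3.62 times in controls. The mutant ratios after background subtraction, 2.15 and 3.04, were also below every control.

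In whole trachea, the question was how the members stood when Wls was deleted with ShhCre. Dchs1, Fat4, Vangl2, Prickle1 and Prickle2 had lower values in the Wls mutant than in both controls, and Celsr1 and Celsr2 had higher ones. Vangl1 and Celsr3 lay just below the lower control. That makes 7 members below both controls and 2 above both, beside 37.6% of all genes below and 36.9% above. No member passed the edgeR test, in which calls made up 4.27% of 15815 genes (1.88% higher and 2.39% lower). At an unadjusted p under 0.05 there were 7 members and 2255 of all genes. DESeq2 and limma-voom also called 0 members, and RLE scaling called 1, Celsr1. With a single mutant library the test has 1 residual degree of freedom and assumes that the mutant varies like the controls. No member met a rule of size either, which asked for a log2 difference of at least 1 that exceeded the gap between controls and was met by 0.253% of genes upward and 0.493% downward. With a log2 limit of 0.58, met by 1.3% upward and 1.95% downward, no member met it either. The median log2 fold change was -0.40 over the members, 7 of them negative, and -0.01 over all genes tested.

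Dchs1 had 171 CPM in the Wls mutant, against 227 and 269 CPM in controls, a log2 fold change of -0.53 ± 0.19 (edgeR adjusted p = 0.0892). Fat4 had 203 CPM in the mutant, against 280 and 318 CPM in controls, at -0.56 ± 0.19 (edgeR adjusted p = 0.0775). For both genes the mutant was farther below the lower control than the controls were from each other. The ratio of Dchs1 to Fat4 per kilobase was 1.27 in the mutant, against 1.21 and 1.27 in controls, so the proportion of ligand to receptor did not leave the control range. Together they made up 40.9% of the summed level of the members in the mutant, against 46.7% and 49% in controls. Chondrocyte markers summed to 762 CPM in the mutant, against 2050 and 1810 CPM in controls, with 10 of 13 called lower, and their part in these values was not tested.

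Celsr1 had 99.5 CPM in the Wls mutant, against 71.7 and 66.4 CPM in controls. Its log2 fold change was 0.53 ± 0.17, the largest upward difference of a member, and its edgeR adjusted p was 0.0502, or 0.0416 with RLE scaling. Celsr2 had 37 CPM in the mutant, against 24.5 and 31.2 CPM in controls, at 0.41 ± 0.18 (edgeR adjusted p = 0.256). Celsr3 was low throughout, with 4.96 CPM in the mutant, against 5.3 and 7.74 CPM in controls, at -0.40 ± 0.31 (edgeR adjusted p = 0.631).

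The sum of the epithelial markers moved with Celsr1 in the tracheas, but not every marker did. The 15 markers summed to 1320 CPM in the Wls mutant, against 964 and 827 CPM in controls. Of these 7 were called higher and 2 lower, and none was at 0. The 2 called lower were Krt5 (-1.34, edgeR adjusted p = 3.9e-05) and Krt19 (-0.63, edgeR adjusted p = 0.035). Krt15 and Trp63 also had negative log2 fold changes, -0.47 and -0.51, and did not pass. Per 100 epithelial marker counts, a ratio chosen after these values were seen, there were 7.47 Celsr1 counts in the mutant, against 7.32 and 8.22 in controls, and 2.78 Celsr2 counts in the mutant, against 2.49 and 3.86 in controls. On that sum the mutant lay between its controls for both genes, but single markers differed. Per single marker, Celsr1 in the mutant was above both controls for 7 of the 15 markers, between them for 3 and below both for 5. Celsr2 in the mutant was above both controls for 4 markers, between them for 7 and below both for 4. Per CPM of the junction protein Cdh1, there were 0.722 CPM of Celsr1 in the mutant, against 0.543 and 0.648 in controls. Per CPM of Epcam the order was reversed, with 0.4 CPM of Celsr1 in the mutant, against 0.506 and 0.594 in controls. The part of the epithelial share in the Celsr values was not tested. Vangl1 by contrast had 2.09 counts per 100 in the mutant, against 2.85 and 3.73 in controls. Celsr1 made up 70% of the summed Celsr level per kilobase in the mutant trachea, against 70.4% and 62.8% in its controls. In sorted cells, from which EPCAM-positive cells had been removed, the share of Celsr1 was 38.7% and 27.7% in Bmp4 mutants, against 20.8%, 16.4% and 29% in controls. These are shares of deposited counts, which in the mutants hold the background. With the background subtracted the mutant shares were 46.6% and 0%, so the composition in mutants is not settled.

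**Figure D4:**
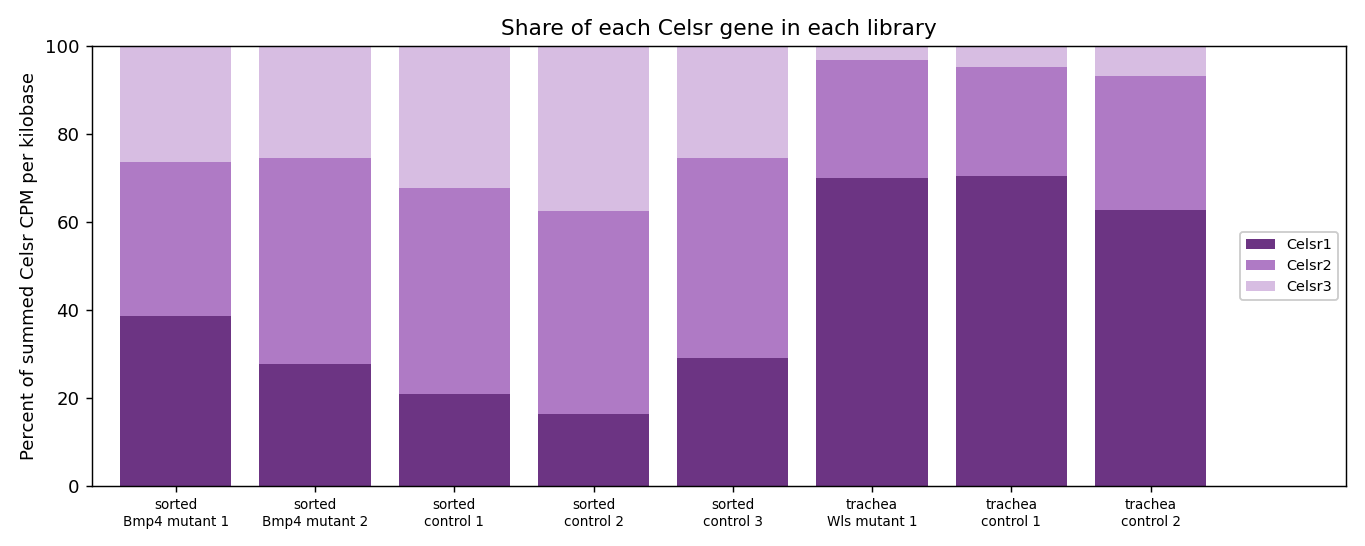
Share of Celsr1, Celsr2 and Celsr3 in their summed CPM per kilobase of exon (percent, vertical axis), 1 stacked bar for each library with mutants left of their controls. Celsr1 takes 62.8% to 70.4% in the 3 tracheas and 16.4% to 38.7% in the 5 sorted libraries. The bars use deposited counts, and those of the Bmp4 mutants include the background.

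Vangl2 had 17 CPM in the Wls mutant, against 22.4 and 26.3 CPM in controls, at -0.52 ± 0.20 (edgeR adjusted p = 0.144), and Vangl1 had 27.8 CPM in the mutant, against 28 and 30.1 CPM in controls, at -0.06 ± 0.19 (edgeR adjusted p = 0.938). The mutant value of Vangl1 was just under its controls, and that of Vangl2 was clearly under them. Vangl2 per kilobase was 0.7 times Vangl1 in the mutant, against 0.92 and 1 times in controls. Prickle1 had 73.5 CPM in the mutant, against 94.2 and 94.3 CPM in controls, at -0.36 ± 0.18 (edgeR adjusted p = 0.323). Prickle2 had 34.5 CPM in the mutant, against 40.1 and 51.4 CPM in controls, at -0.41 ± 0.19 (edgeR adjusted p = 0.272). The ratio of Prickle1 to Prickle2 per kilobase was 4.22 in the mutant, between the controls at 4.67 and 3.65.

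Genes that work with the members were taken from 4 lists of the pathway, of which 52 genes were tested in each setting. In Bmp4 mutants 21 of them were called on the deposited counts, beside 54.9% of all genes tested, and 4 of 45 after background subtraction, beside 3.83%. Among Wnt ligands and receptors of the pathway, 2 of 12 rose and 3 fell, with a median log2 fold change of -0.47. Among cytoplasmic and scaffold partners, which include Dishevelled, 1 of 15 rose and 7 fell (median -0.52). Among effectors, which act on the cytoskeleton, 1 of 16 rose and 2 fell (median -0.12), and among relatives and partners of Fat and Dchs, 2 of 9 rose and 3 fell (median -0.29). The counts lie beside 39.3% of all genes called higher and 15.6% called lower. The medians lie beside 0.53 over all genes tested and -0.33 over the genes above the background, a set chosen partly by control levels.

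The 4 partners called after background subtraction were Fat1, Gpc4, Ankrd6 and Mapk10. Fat1, a protocadherin related to Fat4, had 98.3 and 87.8 CPM in Bmp4 mutants, against 293, 245 and 318 CPM in controls, and fell by 1.62 ± 0.18 on the log2 scale (edgeR adjusted p = 0.0033, and 0.028 after subtraction). Fat1, Fat4 and Dchs1 thus all had both mutants below every control, as had 25.6% of all genes tested. Their relative Fat3, named after its values were seen, was higher on the deposited counts (1.48 ± 0.45, edgeR adjusted p = 0.028) and was not tested after subtraction. Gpc4, a glypican that binds Wnt proteins, had 41.1 and 39 CPM in mutants, against 21, 19.5 and 19.5 CPM in controls, and rose by 1.0 ± 0.17 (edgeR adjusted p = 0.0034, and 0.028 after subtraction). Ankrd6, the mouse counterpart of the fly polarity protein Diego, had 35.9 and 31.6 CPM in mutants, against 17.2, 19 and 19 CPM in controls, and rose by 0.87 ± 0.19 (edgeR adjusted p = 0.0073, and 0.047 after subtraction). Mapk10, a Jun kinase found mainly in neurons, had 44.6 and 60.9 CPM in mutants, against 16.8, 21.9 and 11.5 CPM in controls, and rose by 1.66 ± 0.29 (edgeR adjusted p = 0.0036, and 0.041 after subtraction). For these 4 genes, named because they were called, the groups did not overlap on the deposited counts. This stands beside 48.2% of all genes with both mutants above every control and 25.6% with both below. The neuron markers given above were higher in the same mutants as Mapk10.

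Other partners passed the test on the deposited counts but not after subtraction, or were too low for it. Dact1, which binds Dishevelled and Vangl2, had 15.9 and 23 CPM in mutants, against 47.1, 36.8 and 46.7 CPM in controls, and fell by 1.16 ± 0.23 (edgeR adjusted p = 0.0053), and was at -1.09 after subtraction (edgeR adjusted p = 0.085). Rac1, a small GTPase of the cytoskeleton, also fell by 1.16 ± 0.22 (edgeR adjusted p = 0.0045), and was at -0.86 after subtraction (edgeR adjusted p = 0.089). Yap1, the transcriptional regulator held back by the Hippo pathway to which Fat4 connects, fell by 0.89 ± 0.19 (edgeR adjusted p = 0.007), and was at -0.68 after subtraction (edgeR adjusted p = 0.11). Further falls were called for Amotl1, Dvl3, Gipc1, Daam2, Gpc6 and Ptk7, from 0.65 for Gipc1 to 1.08 for Daam2. After subtraction these ranged from -0.15 for Gipc1 to -1.15 for Daam2. Fzd6, a Frizzled receptor of the core complex, had 10.2 and 11.9 CPM in mutants, against 2.95, 4.96 and 3.2 CPM in controls, and was not above the background limit. Fat2 had 35.8 and 17.5 CPM in mutants, against 0.0391, 0.0441 and 0 CPM in controls, and was likewise under the limit.

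In the Wls mutant trachea, 2 of the 52 partners were called, Ror1 and Wnt5a, beside 4.27% of all genes tested, so the count itself is near the background. Ror1, a receptor related to Ror2, had 16.2 CPM in the mutant, against 32.7 and 44.1 CPM in controls, and fell by 1.25 ± 0.20 on the log2 scale (edgeR adjusted p = 6.4e-07). Wnt5a, the ligand, had 71.7 CPM in the mutant, against 129 and 135 CPM in controls, and fell by 0.88 ± 0.18 (edgeR adjusted p = 2e-04). The receptors Ror2 (-0.38 ± 0.18, edgeR adjusted p = 0.30) and Ryk (0.26 ± 0.17, edgeR adjusted p = 0.55), named here after their values were seen, did not pass. The medians were -0.05 for Wnt ligands and receptors, -0.09 for cytoplasmic partners, 0.03 for effectors and -0.07 for Fat and Dchs partners, beside -0.01 over all genes. In Bmp4 mutants, a comparison named after its values were seen, Wnt5a had 78.3 and 175 CPM, against 559, 318 and 198 CPM in controls, at -1.50 ± 0.50 (edgeR adjusted p = 0.0379, and 0.239 after subtraction).

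The genes whose pattern over the 5 sorted libraries was most like that of Vangl2 were R3hcc1, Thsd4, Stbd1, Capns1 and Fam109a. Their Pearson correlations with Vangl2, on log2 CPM and among 6741 genes, were 0.99983, 0.99981, 0.99966, 0.99914 and 0.9989. This is a description over libraries that share group, depth and background, and 1373 of those genes had a correlation above 0.95.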

How the data were processed

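Gene counts were deposited by the authors as 1 table of whole-number counts for sorted cells and 1 for tracheas, and were used as deposited, with no row left out. Trizol RNA was used throughout, with SMART-Seq v4 amplification for sorted cells, Ovation v2 for tracheas and Nextera XT library preparation for all, per the labels. Tools listed in the submitters' processing notes are Bowtie2, Cufflinks and DESeq, with Trim Galore for sorted cells, and the build is mm10; no role or version is listed. Which program counted reads, on which annotation and strand, is not given in the sources used here, so reads of overlapping antisense genes cannot be told apart.

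Tests used edgeR 4.0.16 in R 4.3.3 (TMM scaling, default filter by group, quasi-likelihood test), mutant over control within each table. Residual degrees of freedom were 3 for sorted cells and 1 for tracheas. CPM of single genes carries the TMM factors, and summed CPM of marker lists does not. Standard errors are the absolute log2 fold change divided by the square root of F. Alternatives used RLE scaling, DESeq2 1.42.0, limma-voom (limma 3.58.1), no filter, each library left out, the replicate number as a block, and the background. Exon lengths came from GENCODE vM21 transcripts linked to RefSeq, found for 92.2% of symbols. That choice, and the alternatives of all basic transcripts and of silent genes other than receptors, were made after seeing the data. The background rate times exon length was subtracted from each mutant count, and genes with a mean level of at least 2 times the background were kept. Chi-square per degree of freedom between replicate libraries was 20.5 to 168, far above counting noise, so each library counts as 1 sample. Reads carry no molecular identifiers.

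The driver of the Cre line in the Bmp4 mutants is not reported here. The members, marker lists and pathway lists were chosen with earlier results of these data known. All members are named. From each pathway list, at most 4 called genes per comparison with the smallest adjusted p are named, with Wnt5a and Fat3 in sorted cells added.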

Additional observations from a re-analysis of the deposited data

How the results depend on the processing

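In sorted cells 7 members were called on the deposited counts, 8 with RLE scaling or DESeq2, 6 with limma-voom, and 7 without the filter or with scaling from genes above the background. Of 21665 genes tested, 11888 were called on the deposited counts, 11675 with RLE scaling, 12583 with DESeq2 and 10736 with limma-voom. Without the filter 12463 of 22861 genes were called, and 10625 of 21665 with scaling from genes above the background. The member counts thus stand beside a high share of calls in each of these settings. The count was 1 after background subtraction, 2 with exon lengths of all basic transcripts, 0 with the rate of silent genes other than receptors, and 0 to 7 when a library was left out, with or without subtraction. On deposited counts without the first mutant it was 2, with 9 pathway partners and 3595 of all genes called, and without the second mutant 7829 of all genes were called. Of the pathway partners 21 were called, 4 after subtraction, 5 with all basic transcripts, 2 with the other rate and 0 to 22 without a library. Of all genes 11888 were called, 409 after subtraction, 1191 with all basic transcripts and 179 with the other rate. Without a library 0 to 10478 were called, with or without subtraction. With the replicate number as a block the counts were 0 members, 0 partners and 4 genes in the whole table, and Dchs1 and Fat4 each had an edgeR adjusted p of 0.0516. Mutants and controls share only the numbers 1 and 2, and the labels do not say that a number pairs libraries. Deviations of libraries with the same number had correlations of -0.17 and -0.11. The 2 mutants deviate from their mean as mirror images, so these correlations cannot show or exclude a pairing. The block also leaves fewer residual degrees of freedom than the main fit. Without the background and without the first mutant, Prickle1 was at 0.03 in place of a negative log2 fold change (-0.79 to 0.03 when a library was left out), and the cause was not tested.

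In tracheas 0 members were called, and 1 with RLE scaling. Of 15815 genes tested 676 were called, 702 with RLE scaling and 268 with DESeq2. The rule of size was met by 118 genes, and by 514 with a log2 limit of 0.58, no member among them. Without either control, 1 library stood against 1 and gave values with no test. Dchs1 and Fat4 kept a negative log2 fold change under every alternative run in both settings. The background limits the Celsr genes in sorted cells.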
